A study of Mus musculus with 2 samples.

Results

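The cells described here were barcodes from mouse hindlimb muscle that held transcripts of bone and cartilage genes. They were selected on the readout itself. A barcode was a member when it had at least 1500 unique molecular identifiers (UMIs, one per captured transcript), at most 10% of them from mitochondrial genes, and at least 1 UMI of at least 2 of 6 genes, namely Bglap, Bglap2, Acan, Dlx5, Mmp13 and Ostn. This rule found 59 members among 14654 cells that passed the UMI and mitochondrial limits, 28 of 6087 cells in one library and 31 of 8567 in the other.

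Both libraries were droplet 3′ single-cell RNA-seq of tdTomato+ cells sorted from muscle of Hic1CreERT2/CreERT2;Rosa26LSLtdTomato/tdTomato mice on the C57BL/6J background, in which tamoxifen (TAM) lets a Cre recombinase made from the Hic1 locus switch on a lasting red label, so that cells that expressed Hic1 when TAM was given, and all their descendants, stay marked. In the E10-P56 library, dams received 7.5 mg TAM by gavage at embryonic day 10, so that the label was set in the embryo. In the adult pulse library, 8-week-old mice received 5 daily doses of 2.5 mg. The labels put both collections at postnatal day 56, while the study's text gives a later collection for the adult pulse, and there was 1 library for each labelling time, so labelling time, library, age and batch cannot be told apart. Both groups carried the Cre insertion on both Hic1 alleles. For P56 muscle, the study's methods state that tibialis anterior muscles of 2 hindlimbs were pooled, digested with collagenases and Dispase and sorted in 2 rounds. The sort took tdTomato+ cells that lacked endothelial and blood surface markers. The study cites an earlier report for its adult pulse cells, so it is not known whether this preparation holds for the adult pulse library. With 1 library per condition no test between conditions or cells is given, and every interval below is an exact 95% interval that covers counting error only.

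Bone and cartilage cells share a mesenchymal origin. Osteoblasts lay down collagen I and mineralise it, and late in that programme they secrete osteocalcin, the product of the Bglap genes, whereas chondrocytes build a collagen II matrix filled with the proteoglycan aggrecan, the product of Acan. Dlx5 is a homeobox transcription factor of the osteoblast programme, Mmp13 is a collagenase made by hypertrophic chondrocytes and osteoblasts, and Ostn encodes osteocrin, a secreted peptide that binds the natriuretic peptide clearance receptor. Neither cell type is known as a resident of muscle, but tendons, fascia and the bone surface lie next to it.

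The rule genes lie on several chromosomes of the GRCm38 build (GENCODE M21 annotation). Bglap (ENSMUSG00000074483) occupies chr3:88383501-88384464 and its neighbour Bglap2 (ENSMUSG00000074486) chr3:88377736-88378699, both on the minus strand. Acan is at chr7:79053483-79115099, Dlx5 at chr6:6877805-6882085, Mmp13 at chr9:7272514-7283331 and Ostn at chr16:27307489-27351212. Promoter windows from 250 bases before to 50 bases after the start site were taken from RefSeq (GRCm38.p6), and the set of windows used here held 3 of the 6 rule genes. They are printed, in the direction of transcription, because Runx2, the master regulator of osteoblasts, binds the core motif ACCACA. Both strands were searched and capitals mark a match.
Bglap, chr3:88384417-88384716, minus strand: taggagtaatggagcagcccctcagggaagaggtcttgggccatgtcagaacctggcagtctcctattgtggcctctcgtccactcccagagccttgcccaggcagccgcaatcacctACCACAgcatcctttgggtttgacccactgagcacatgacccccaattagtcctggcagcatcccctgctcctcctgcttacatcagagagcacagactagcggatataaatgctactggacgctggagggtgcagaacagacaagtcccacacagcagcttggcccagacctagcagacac
Mmp13, chr9:7272264-7272563, plus strand: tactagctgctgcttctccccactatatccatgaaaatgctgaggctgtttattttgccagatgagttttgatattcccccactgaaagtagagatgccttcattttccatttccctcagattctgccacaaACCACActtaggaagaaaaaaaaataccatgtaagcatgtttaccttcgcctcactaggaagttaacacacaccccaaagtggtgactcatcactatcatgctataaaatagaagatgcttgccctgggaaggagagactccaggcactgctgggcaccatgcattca
Acan, chr7:79052976-79053275, plus strand: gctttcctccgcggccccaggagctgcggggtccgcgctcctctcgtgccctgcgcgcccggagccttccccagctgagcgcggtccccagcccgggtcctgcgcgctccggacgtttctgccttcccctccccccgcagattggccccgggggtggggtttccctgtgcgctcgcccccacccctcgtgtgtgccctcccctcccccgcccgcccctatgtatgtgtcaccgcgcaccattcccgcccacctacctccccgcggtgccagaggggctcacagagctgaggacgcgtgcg
The Bglap window held 1 match, starting at position -132 from the start site, and the Mmp13 window held 1 at position -118. The Acan window held none, which says only that these letters are not in that window. Of all 32851 promoter windows, 16.8% held the motif, so a match is a description and not a site. Bglap2, Dlx5 and Ostn were not among the windows used.

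Members made up 0.46% of cells in the E10-P56 library (interval 0.306 to 0.664%) and 0.362% in the adult pulse library (0.246 to 0.513%). The E10-P56 members had a median of 7066 UMIs, from 3261 to 21142, beside a median of 7654 in the other cells. The adult pulse members had a median of 9370 UMIs, from 4552 to 36519, beside 7336 in the other cells. The mitochondrial share was higher in members than in other cells in both libraries, with medians of 3.9% against 2.55% among E10-P56 cells and 4.41% against 2.7% among adult pulse cells. Some of the results below were recomputed with each cell reduced to the same number of UMIs, or with other mitochondrial limits. For the results without such a recomputation, the part of depth and mitochondrial share was not tested. A doublet caller marked only 1 barcode in each library and so did not work here. The top 5% of doublet scores included 2 members in each library, and no cell was removed on that score. The 2 libraries shared 15 barcode sequences. A gene without a UMI in members can have a level of up to 13.3 CPM (UMIs per 1000000) in the E10-P56 members and 8.46 CPM in the adult pulse members, which is the limit that 3 counts set.

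In the E10-P56 library the rule was met mainly through Acan, Dlx5 and Ostn, and the values below describe the choice and test nothing. Acan was present in 24 of 28 members, with 0 to 44 UMIs and a median of 2. Dlx5 was present in 19 members, with 0 to 7 UMIs and a median of 1. Ostn was present in 15 members, with 0 to 22 UMIs and a median of 1. Bglap, the osteocalcin gene, was present in only 12 members and reached 8 UMIs at most, Bglap2 had a single UMI in 1 member, and Mmp13 had none. The commonest combination was Acan with Dlx5, in 8 members, followed by Acan with Dlx5 and Ostn and by Bglap with Acan, in 4 members each.

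In the adult pulse library the same rule was met mainly through osteocalcin. Bglap was present in 26 of 31 members, with 0 to 100 UMIs and a median of 12. Bglap2 was present in 23 members, with 0 to 91 UMIs and a median of 9. Dlx5 was present in 29 members, with 0 to 13 UMIs and a median of 3. Ostn was present in 16 members, with up to 19 UMIs, and Acan in only 7, with up to 5. Mmp13 was present in 8 members, but 1 cell held 225 of its 303 UMIs. Bglap with Bglap2, Dlx5 and Ostn was the commonest combination, in 9 members.

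**Figure D1:**
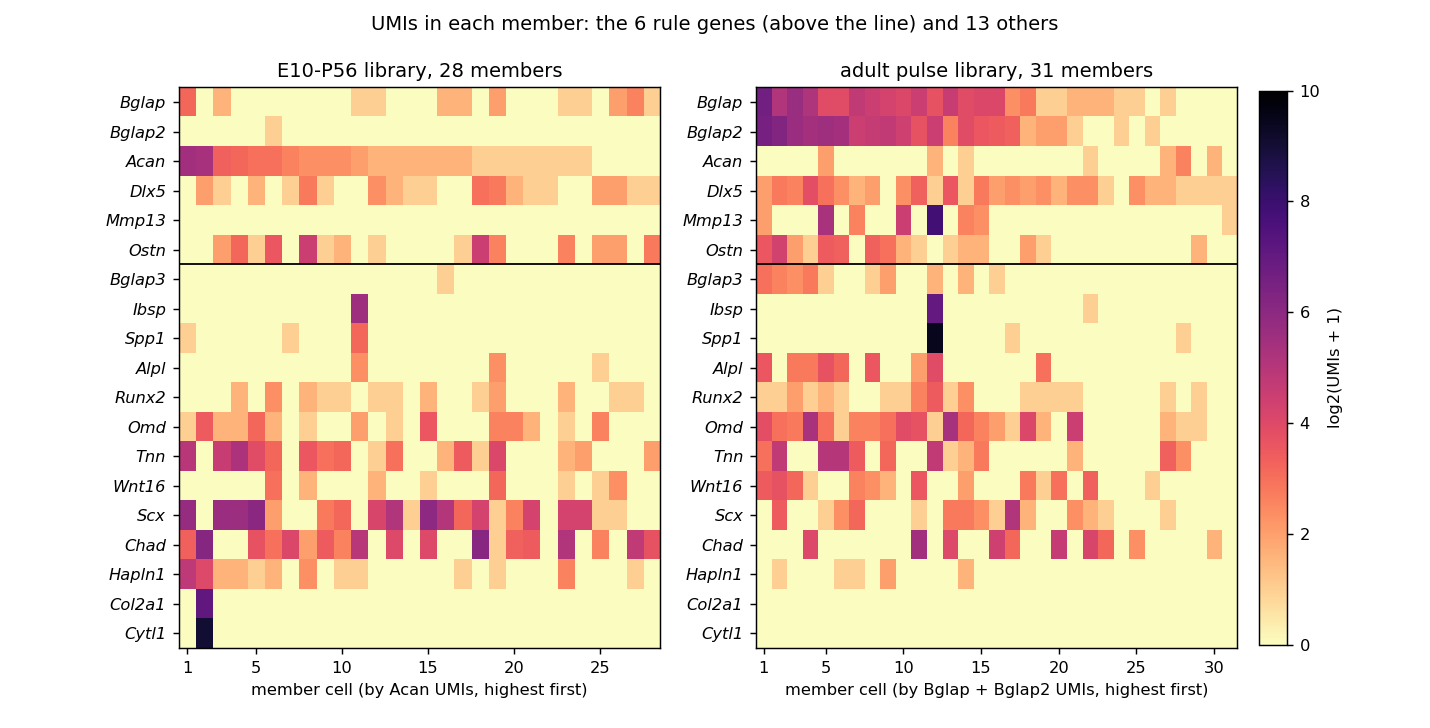
UMIs (log2 of UMIs + 1, colour scale) of 19 genes in each of the 28 E10-P56 and 31 adult pulse members, 1 column per cell, ordered by Acan UMIs on the left and by Bglap plus Bglap2 UMIs on the right. Osteocalcin fills the left part of the adult pulse panel and is sparse in the E10-P56 panel, and Ibsp, Spp1, Col2a1 and Cytl1 each have their strong signal in single columns.

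The counts of the rule genes in the other cells of the same library complete the description of the choice. For the adult pulse, Bglap had 452 UMIs in the 31 members and 8 UMIs in 7 of the 8536 other cells. In E10-P56, Bglap had 30 UMIs in members and 36 UMIs in 17 other cells, 1 of which held 9. Ostn had 94 UMIs in the E10-P56 members and 7 in 7 other cells, while its adult pulse values were 83 in members and 9 in 3 other cells. Dlx5 was the exception, with more UMIs outside the members than inside in both libraries, 109 against 47 among E10-P56 cells and 223 against 112 among adult pulse cells. Fibroblast-like cells outside the members had an Ostn UMI in 0.118% of 4243 E10-P56 cells and 0.0143% of 6981 adult pulse cells, at median depths of 8931 and 7666 UMIs, and a Dlx5 UMI in 1.51% and 1.1%. Shares were higher in other clusters. Acan was present in 6.93% of 332 smooth muscle-like E10-P56 cells, and Dlx5 in 8.9% of 236 cells of the unnamed E10-P56 cluster, 12.6% of 167 smooth muscle-like adult pulse cells and 18.2% of the 159 other cells of the unnamed adult pulse cluster.

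In E10-P56 the median UMIs on both sides of the limit lay close together for Acan, Bglap and Dlx5, but less so for Ostn. Just inside it, 16 members had exactly 2 rule genes, and just outside it, 172 cells had exactly 1. Acan had a median of 2 UMIs in the cells of the first kind that held it and 1 in those of the second kind. Its highest values were 44 and 12. Bglap had medians of 2 and 1, and Dlx5 had 1 in both. Ostn had medians of 3 and 1, with highest values of 8 and 1. For the adult pulse, 8 members had exactly 2 rule genes and 177 cells outside had exactly 1, of which 139 held Dlx5.

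Osteocalcin is encoded in mice by a cluster of near-identical genes, and their UMIs were divided differently in the 2 libraries. Of the UMIs of Bglap, Bglap2 and Bglap3 in members, Bglap took 93.8% in E10-P56 (30 UMIs, interval 79.2 to 99.2%). Its share was 44.6% in adult pulse members (452 UMIs, 41.5 to 47.7%), where Bglap2 took 52.2% (529 UMIs, 49.1 to 55.3%). The split was not particular to members. In the other cells Bglap took 85.7% in E10-P56 (36 UMIs, 71.5 to 94.6%), where Bglap2 had no UMI. In the other adult pulse cells Bglap took 38.1% (8 UMIs, 18.1 to 61.6%) and Bglap2 47.6% (10 UMIs, 25.7 to 70.2%). The reference transcripts of Bglap and Bglap2 differ at 6 of 440 aligned bases and at 1 of their last 200, where a 3′ library reads, so a read can be given to the wrong copy and the split between copies is uncertain. The E10-P56 matrix was written by Cell Ranger 5.0.0 and the adult pulse matrix by 3.0.2, and the part of that difference in the split was not tested.

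The members were next placed among the clusters of each library, which were built without the 6 rule genes. In E10-P56, 25 of 28 members (89.3%, interval 71.8 to 97.7%) lay in a tenocyte-like cluster of 274 cells marked by the tendon genes Scx, Tnmd, Kera and Fmod. That name depended on the Leiden resolution, which sets how finely cells are divided and was 0.5. At resolution 0.3 the tenocyte-like cluster again held 25 members, whereas at resolution 1 it was smaller, with 179 cells, and held none, and 25 members lay in an unnamed cluster of 121 cells with Chad, Wif1, Angptl7 and Col8a2 as its leading genes. That cluster met 6 tenocyte markers (Scx, Tnmd, Mkx, Kera, Thbs4 and Fmod) but was not given the name, because 2 of its 10 leading genes, Chad and Comp, were on the chondrocyte list and none on the tenocyte list. Of the adult pulse members, 25 of 31 (80.6%, 62.5 to 92.5%) lay in a cluster of 184 cells that was left unnamed. It met 4 chondrocyte markers (Col11a1, Comp, Chad and Prg4), but 3 of its 10 leading genes were the rule genes Bglap2, Bglap and Dlx5 and none was on the chondrocyte list. Another adult pulse member lay in the tenocyte-like cluster. None of the 159 other cells of the unnamed cluster had a UMI of Bglap or Bglap2, while 29 of them had Dlx5. Fibroblast-like clusters held 1 E10-P56 member (3.57%, 0.0904 to 18.3%) and 4 adult pulse members (12.9%, 3.63 to 29.8%), although they made up most cells of both libraries. Smooth muscle-like clusters held 1 member in each library, and the pericyte-like clusters held none. A cluster of 56 E10-P56 cells that met 3 chondrocyte markers (Sox9, Sox6 and Col9a2) also held none, and Trf, Apod and Scube1 were among its leading genes. Only 1 of these 56 cells had a Col2a1 UMI and 0 had a Chad UMI. The study lists Sox9 among its endoneurial markers, so this cluster is not called cartilage here.

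**Figure D2:**
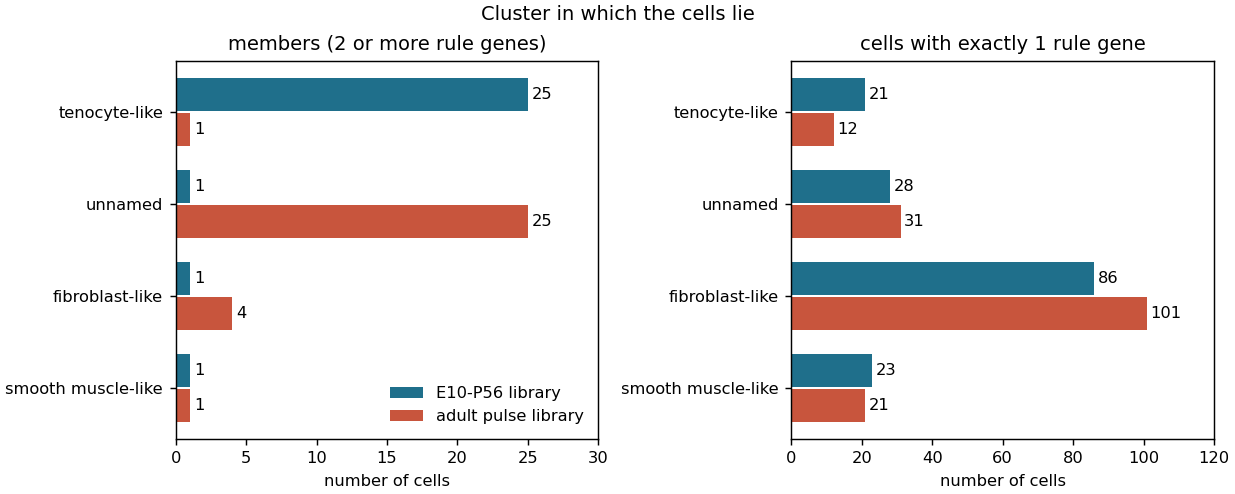
Number of cells (x axis) in 4 kinds of cluster (y axis) for members, left, and for cells with exactly 1 rule gene, right, in the E10-P56 and adult pulse libraries; the remaining kinds held no member. The unnamed clusters of the 2 libraries are different clusters, and at the resolution of 0.5 plotted here members sat mostly in the tenocyte-like cluster in E10-P56 and in the unnamed one in the adult pulse, whereas fibroblast-like clusters held 86 and 101 of the cells with 1 rule gene.

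Genes of the osteoblast list other than the rule genes were measured next, as the ratio of CPM summed over members to CPM summed over all other cells, with 5 CPM added to both. Of the 17 genes, 10 in each library had the 50 UMIs set as a minimum. In E10-P56, 7 of the 10 were 2-fold or more higher in members and none was 2-fold or more lower, with a median log2 ratio of 1.82, while 6.27% of 13134 genes tested were 2-fold or more higher and the median of all was -0.16. Among adult pulse members, 7 of the 10 were higher and none lower, with a median log2 ratio of 2.96, while 5.02% of 13145 genes tested were higher and the median of all was -0.09. The minimum counts the UMIs of members too, and Ibsp passed it only through them in both libraries. With the minimum required in the other cells alone, an alternative chosen after the values were seen, 6 of 9 genes were higher in each library. Set against tenocyte-like cells in place of all other cells, 4 genes were higher for E10-P56 and 7 for the adult pulse, and with each cell thinned to 1500 UMIs before the rule was applied the counts were 2 and 6.

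Some of these genes were spread over many members. Omd, which encodes osteomodulin, a proteoglycan of mineralised matrix, was present in 15 of 28 E10-P56 members (0 to 11 UMIs, median 1) and in 23 of 31 adult pulse members (0 to 40 UMIs, median 3). Its CPM ratio to the other cells was 12.8 (interval 9.66 to 16.6) and 14.7 (12.7 to 16.8). Outside members it was present in 48% of perineurial-like E10-P56 cells, at 173 CPM against 261 CPM in members, and in 34.2% of tenocyte-like adult pulse cells. Runx2 was present in 13 and 18 members, with at most 4 and 10 UMIs, and its ratios were 8.34 (5.2 to 12.7) and 13 (9.06 to 18.2). The cycling clusters held it in 56% of 175 E10-P56 cells, at 45.8 CPM against 97.3 CPM in members, and in 38.1% of 21 adult pulse cells, at 31.7 against 104 CPM. Alpl, the alkaline phosphatase that frees phosphate for mineral, was present in 3 E10-P56 members and 9 adult pulse members, with 9 and 78 UMIs in all. It was not particular to members, since 23.2% of the E10-P56 cluster with Sox9 and Col9a2 held it, at 83.3 CPM, and so did 29.8% of perineurial-like adult pulse cells, at 89.1 CPM. Pth1r, the parathyroid hormone receptor, was present in 10 and 16 members. Sp7, the osteoblast transcription factor osterix, had 3 UMIs in 2 E10-P56 members and 13 UMIs in 8 adult pulse members, and was under the minimum in both libraries.

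Other osteoblast genes came from single cells. One adult pulse member with 28030 UMIs held 129 of the 130 Ibsp UMIs, 695 of the 697 Spp1 UMIs, 225 Mmp13 UMIs, 14 Alpl UMIs and 4 Sp7 UMIs, together with 1441 UMIs of Col1a1. Ibsp and Spp1 encode bone sialoprotein and osteopontin, the acidic proteins of mineralised matrix. One E10-P56 member with 4537 UMIs held all 47 Ibsp UMIs, 8 of the 10 Spp1 UMIs, 4 Alpl UMIs and 63 Comp UMIs. When the member with the most UMIs of each gene was left out, an alternative chosen after the values were seen, 3 of the 10 osteoblast-list genes stayed 2-fold or more higher in E10-P56 (Omd, Runx2 and Alpl). The adult pulse kept 5, among them Omd, Alpl, Runx2 and Pth1r. The osteocyte genes Dmp1, Phex, Mepe, Sost and Fgf23 together had 1 UMI in the E10-P56 members, from Dmp1, and none in the adult pulse members.

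**Figure D3:**
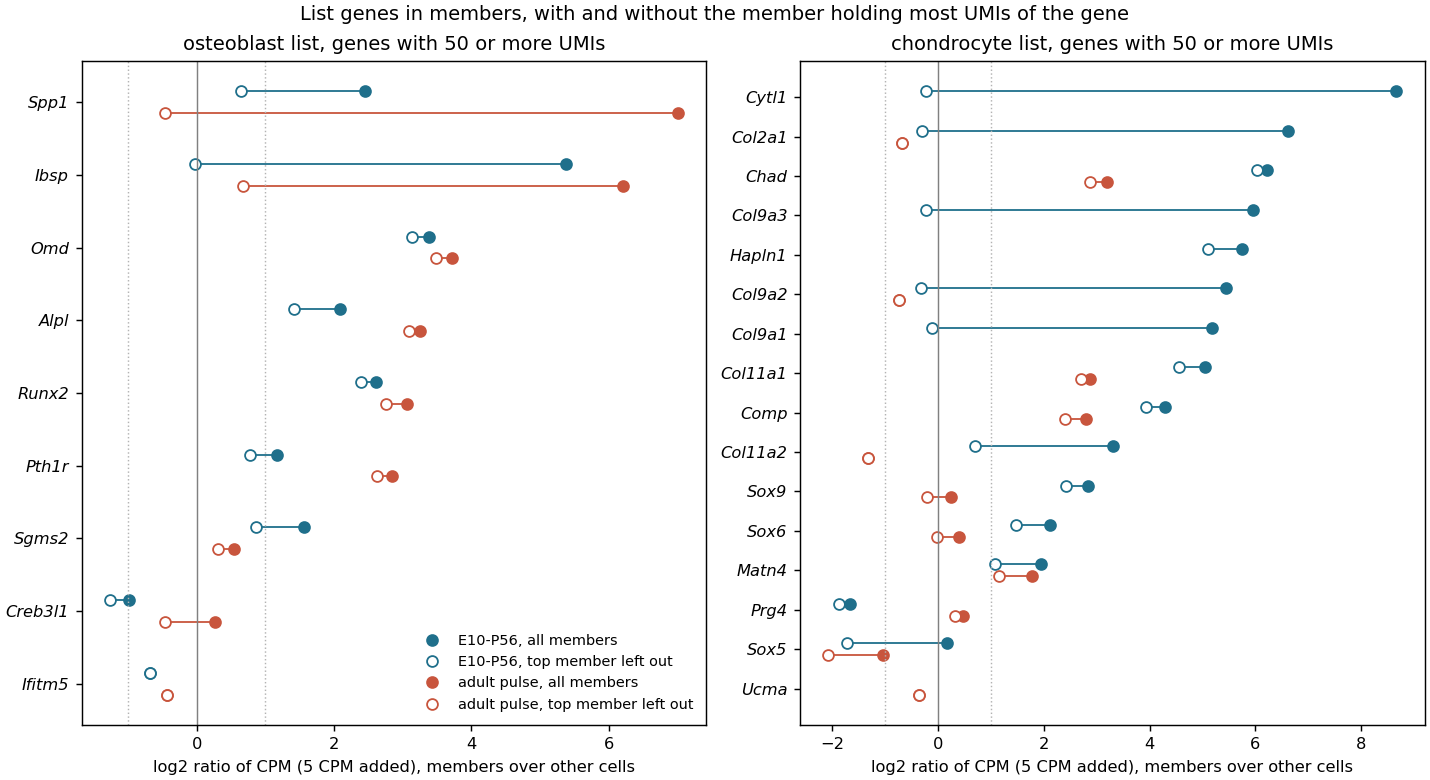
log2 ratio of CPM (5 CPM added) in members over all other cells for genes drawn from the osteoblast and chondrocyte lists with 50 or more UMIs (y axis, 1 row per gene), for the E10-P56 and adult pulse libraries. Filled points use all members and open points leave out the member with most UMIs of that gene; dotted lines mark a 2-fold ratio, and the long lines of Spp1, Ibsp, Cytl1 and Col2a1 show genes carried by 1 cell.

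The share of members with 3 or more osteoblast-list genes was 50% for E10-P56 (14 of 28, interval 30.6 to 69.3%) and 71% for the adult pulse (22 of 31, 52 to 85.8%). The other cells reached 11.4% and 9.97%, and the tenocyte-like cells outside the members 12.45% and 16.1%. The list holds Bglap3, a near-identical copy of the rule genes Bglap and Bglap2, present in 1 E10-P56 member and 10 adult pulse members. The shares are thus not fully separate from the rule, and they were not recomputed without Bglap3. Those values also move with depth. Thinned to 1500 UMIs, 7.14% of the E10-P56 members (2 of 28, interval 0.877 to 23.5%) still had 3 or more such genes. For the adult pulse members it was 19.4% (6 of 31, 7.45 to 37.5%). The other cells had 0.231% and 0.141%, and the tenocyte-like cells outside the members 0.803% and 1.07%.

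The chondrocyte list gave different counts in the 2 libraries. In E10-P56, 13 of its 15 genes tested were 2-fold or more higher in members and 1 was lower, with a median log2 ratio of 5.06. Among adult pulse members 4 of 12 were higher and 2 lower, with a median of 0.33. The shares of all genes tested were 6.27% higher and 12.9% lower for E10-P56, 5.02% and 9.21% for the adult pulse. One of the 2 lower adult pulse genes, Col11a2, had no UMI in members and was not 2-fold lower at the limit of 3 counts, and with the genes at 0 UMIs placed at that limit the adult pulse median was 0.73. Hapln1 and Col9a1 passed the minimum in E10-P56 only through members, and with it required in the other cells alone 11 of 13 genes were higher there and still 4 of 12 in the adult pulse. With each cell thinned before the rule was applied the count was 4 in both libraries, with 3 rule genes required it was 6 for E10-P56 and 4 for the adult pulse, and against tenocyte-like cells it was 9 and 1. The difference was not tested, since there is 1 library for each labelling time. Among members, collagen II itself was in 1 cell. That E10-P56 member, with 16702 UMIs, held all 136 Col2a1 UMIs, all 43 Col9a1, 60 Col9a2 and 80 Col9a3 UMIs, all 530 UMIs of Cytl1, a secreted factor of cartilage, and 53 of the 55 UMIs of Mia, and it had only 3 UMIs of Col1a1. Without the member with the most UMIs of each gene, 7 of the 15 list genes stayed 2-fold or more higher in E10-P56. No adult pulse member had a UMI of Col2a1, Col9a2, Col9a3 or Cytl1. Outside the members Col2a1 was present in 16.5% of 249 tenocyte-like E10-P56 cells, with 61 UMIs in all. It was also in 20% of 559 tenocyte-like adult pulse cells, with 178 UMIs.

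Chondrocyte-list genes that were spread over members are also genes of tendon and fibrocartilage. Col11a1 was present in 25 of 28 E10-P56 members and Comp in 20 (0 to 63 UMIs, median 4), at levels of 1052 and 1185 CPM, but tenocyte-like cells outside the members had 997 and 992 CPM. Chad, which encodes chondroadherin, was present in 19 members (0 to 70 UMIs, median 8), at 1574 CPM against 680 CPM in those tenocyte-like cells. Hapln1, the link protein that anchors aggrecan, was present in 13 members (0 to 27 UMIs, median 0), at 279 CPM against 6.64. Sox9, the transcription factor of cartilage, was present in 13 members, at 230 CPM against 14.7. In the adult pulse members Comp, Col11a1 and Chad had 508, 505 and 443 CPM, all under the 637, 918 and 551 CPM of that library's tenocyte-like cells. Matrix genes of the growth plate were sparse, with 6 UMIs of Col10a1, all in the collagen II cell, and no UMI of Ihh or Matn1 in members of either library.

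Since most E10-P56 members lay in the tenocyte-like cluster at resolution 0.5, tendon genes were set side by side with its 249 cells outside the members. Scx, the tendon transcription factor scleraxis, was present in 21 of 28 members (0 to 64 UMIs, median 7), at 2047 CPM against 6373 CPM. Fmod, which encodes fibromodulin, had 1220 CPM against 4598 CPM, and Tnmd, a late tendon marker, 195 against 1999 CPM. Kera, Chodl and Col22a1 had no UMI in the members. At the limit that 0 of 226207 UMIs allows (3 counts), their CPM was at least 78.1-fold, 121-fold and 21.5-fold higher in the tenocyte-like cells. Of all genes tested, 6.27% were 2-fold or more higher and 12.9% lower in E10-P56 members, and 5.02% and 9.21% in adult pulse members. Many of the lower genes had no UMI in members, and with a gene at 0 counted as lower only where the limit of 3 counts lay 2-fold or more under the other cells, a criterion added after the values were seen, the lower shares were 7.35% and 6.72%. Over the whole tenocyte list, 5 of 10 genes were 2-fold or more higher and 3 lower in E10-P56 members than in all other cells, with a summed level of 5760 against 1558 CPM and Scx as the most abundant gene. For the adult pulse 2 of 10 were higher and 4 lower, with 2555 against 3008 CPM, Fmod as the most abundant gene and Col22a1 at 0. At the limit of 3 counts 2 genes were lower in E10-P56, without Col22a1, and still 4 in the adult pulse.

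**Figure D4:**
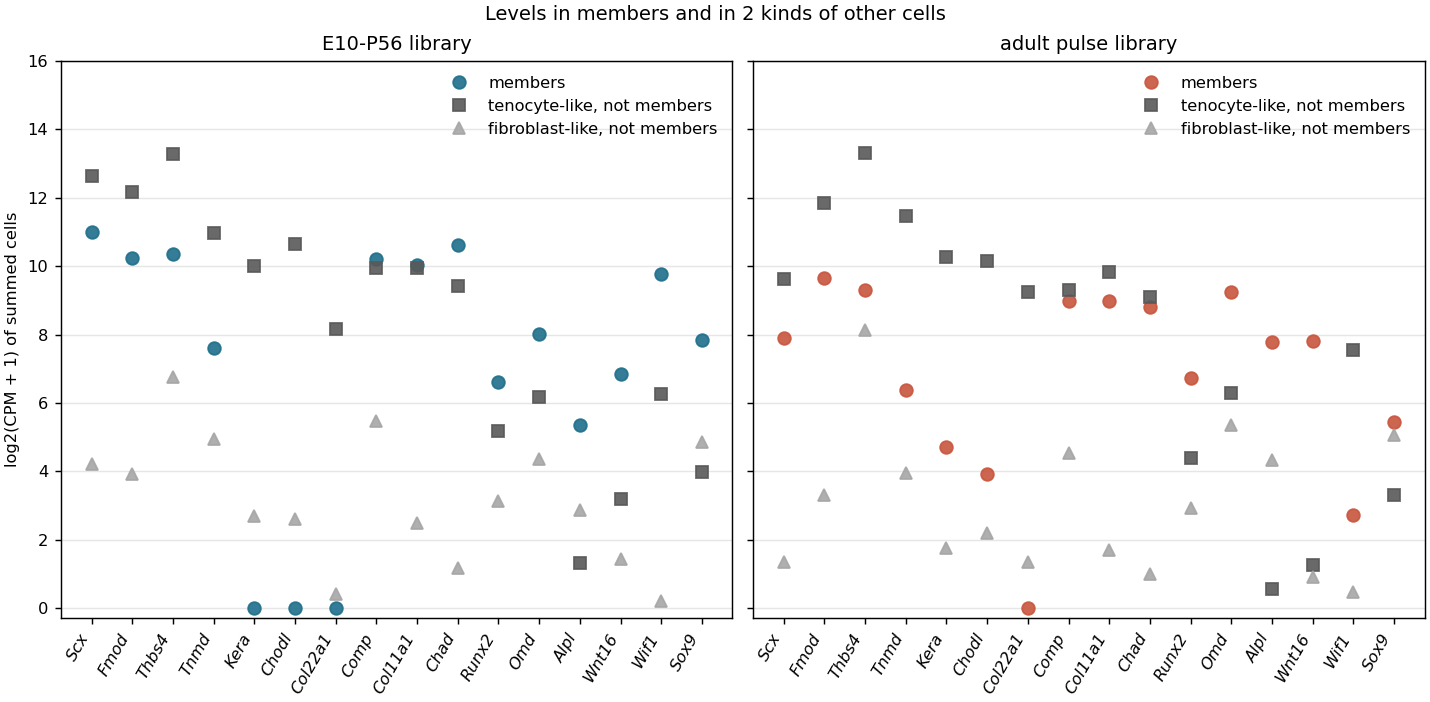
Level of 16 tendon, cartilage and bone genes (log2 of CPM + 1, y axis) in members, in tenocyte-like cells outside the members and in fibroblast-like cells outside the members, for the E10-P56 (left) and adult pulse (right) libraries, each point a sum over cells. Members lay below tenocyte-like cells for Scx, Fmod, Thbs4, Tnmd, Kera, Chodl and Col22a1 and above them for Runx2, Omd, Alpl, Wnt16 and Sox9 in both libraries.

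Outside the rule and by size alone, the 10 genes with the largest ratio in E10-P56 members were Wif1, Chad, Hapln1, Mia, Col8a2, Ptn, Tnn, Col11a1, Edil3 and Npnt. Hapln1 and Mia, with 16 and 3 UMIs in the other cells, passed the minimum of 50 UMIs only through members, and 1 cell held 53 of the 55 Mia UMIs. Wif1, a secreted inhibitor of Wnt signalling, was present in 13 of 28 members with 197 UMIs, of which the collagen II cell held 102, and its CPM ratio to other cells was 468 (interval 370 to 593). Of the 116 Wif1 UMIs outside the members, 102 were in tenocyte-like cells, at 75.2 CPM against 871 CPM in members. Ptn, the growth factor pleiotrophin, was present in 22 members at 2454 CPM against 52.8 CPM, and tenocyte-like cells outside the members had 860 CPM. Tnn, a tenascin of periosteum and bone matrix, was present in 17 members (0 to 36 UMIs, median 2), and its ratio was 51 (43.3 to 59.8). Of the 983 Tnn UMIs outside the E10-P56 members, 862 were in cells of the cycling cluster, where 50.3% of 175 cells held one. In tenocyte-like cells outside the members Tnn had 18.4 CPM against 805 CPM in members.

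The corresponding 10 genes of the adult pulse were Tnn, Wnt16, 1500015O10Rik, S1pr1, Ptn, Col8a2, 1810041L15Rik, Lrrc15, Crabp1 and Dkk3. Tnn and 1810041L15Rik passed the minimum only through members, so their place among the leading genes rests on the group in which they were high. Tnn had 162 UMIs in 13 of 31 members (0 to 31 UMIs, median 0) and 3 UMIs in all 8536 other cells, a CPM ratio of 10323 with a counting interval of 3470 to 50579. Wnt16, a Wnt ligand known from cortical bone, had 80 UMIs in 14 members (0 to 12 UMIs) and 62 UMIs in the other cells, a ratio of 247 (175 to 349). 1500015O10Rik, a secreted protein gene, was present in 26 members at 1861 CPM against 47.2 CPM. It had 750 CPM in the 159 other cells of the unnamed cluster, where 54.1% held it, and 380 CPM in tenocyte-like cells. S1pr1, a receptor for sphingosine 1-phosphate, was present in 19 members at 195 CPM against 3.25 CPM, and 50 of 51 endothelial-like cells held it, at 933 CPM. Crabp1 and 1810041L15Rik were concentrated, with 59.3% and 51.2% of their member UMIs in 1 cell. Wif1, which led in E10-P56, had 2 UMIs in the adult pulse members and 923 in the other cells of that library.

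Col8a2, Ptn and Tnn were among the 10 leading genes of both libraries, which is 30% of each list. With the minimum required in the other cells alone, Tnn left the adult pulse list and 1500015O10Rik, Col8a2 and Ptn were shared. Of the 40 leading genes of each library, 17 (42.5% of each list) were the same, among them Tnn, Wnt16, Ptn, Col8a2, Omd, Col12a1, Edil3, Fgfr2 and S1pr1. With the minimum required in the other cells alone, 18 of 40 (45%) were the same, without Tnn. Wnt16 was present in 8 E10-P56 members, at 115 CPM against 1.61 CPM. Col12a1, a collagen of periosteum and tendon surfaces, had 1755 against 88.7 CPM in E10-P56 and, for the adult pulse, 1376 against 70.6 CPM.

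The 10 genes with the smallest ratio of members to other cells in E10-P56 were Cxcl13, Ccl2, Plac8, Cxcl1, Ccl7, Ccl11, Efemp1, Krtdap, Mgst1 and Dpp4, among them 5 chemokine genes. Cxcl13 had 0 UMIs in the 28 members and 29335 in the other cells, at least 35.5-fold higher there. Tenocyte-like cells outside the members were also low in some of these genes, with 17 CPM of Cxcl13, 13.3 of Ccl2, 13.3 of Ccl7 and 26.6 of Ccl11, beside the 13.3 CPM limit of a gene at 0 UMIs in members. Plac8 and Krtdap had 14.8 and 8.85 CPM there. Other genes of the 10 were higher in those tenocyte-like cells than in members. Dpp4 had 61.2 against 4.42 CPM, Mgst1 75.2 against 13.3 CPM and Efemp1 33.9 against 8.84 CPM. Cxcl1 was at 44.3 CPM in those tenocyte-like cells and at 8.84 CPM, from 2 UMIs, in members. In the adult pulse the 10 genes with the smallest ratio were C3, Smpd3, Pi16, Pcsk6, Ace, Lgi2, Pcdh19, Sfrp2, Slfn5 and D630033O11Rik. C3, a complement component, had 4 UMIs in 3 of 31 members and 1172 CPM in the other cells. In the fibroblast list 8 of 10 genes were 2-fold or more lower in E10-P56 members and 10 of 10 in adult pulse members, beside 12.9% and 9.21% of all genes tested. Its summed level was 3196 against 23710 CPM and 5515 against 35638 CPM, with Gsn as the most abundant gene. The marker Pdgfra was present in 8 and 16 members.

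Signalling genes of the bone lists are given beside the shares of all genes tested, 6.27% higher and 12.9% lower for E10-P56, 5.02% and 9.21% for the adult pulse. Id1, Id2 and Id3, targets of BMP signalling, were 2-fold or more higher in members of both libraries, with log2 ratios of 4.04, 2.53 and 1.79 for E10-P56 and 1.86, 2.43 and 1.63 for the adult pulse. The ligand gene Bmp4 had 0 UMIs in E10-P56 members and was at least 3.42-fold higher in the other cells at the limit of 3 counts, and it had 6 UMIs in adult pulse members, a log2 ratio of -1.6. Nog, the BMP antagonist noggin, had 20 UMIs in 9 adult pulse members and 2 UMIs in 2 E10-P56 members. Over the BMP and Wnt list, 7 of 22 genes tested were higher and 5 lower in E10-P56, and 7 of 23 were higher and 4 lower in the adult pulse. Of the natriuretic peptide receptors, Npr3, the clearance receptor that osteocrin binds, had 0 UMIs in E10-P56 members and 1 in adult pulse members, Npr2 had 3 and 7, and Npr1 had 3 and 2. In the natriuretic peptide list 1 of 6 genes tested was higher and 2 lower in each library. Of the RANK ligand system, which links osteoblasts to osteoclasts, Tnfsf11 had 2 UMIs in 1 E10-P56 member and 7 UMIs in 4 adult pulse members, and the decoy receptor gene Tnfrsf11b had 10 and 0. In the bone remodelling list 2 of 5 genes tested were higher and 2 lower in E10-P56, and 1 of 5, Wnt16, was higher and 2 lower among adult pulse members. At the limit of 3 counts the lower genes were 4 in place of 5 of the BMP and Wnt list for E10-P56, and 1 in place of 2 of the natriuretic peptide and of the remodelling list for the adult pulse.

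The same shares stand behind the matrix and mineral lists, 6.27% higher and 12.9% lower for E10-P56, 5.02% and 9.21% for the adult pulse. The bone collagen and matrix list had 5 of 17 genes higher and 2 lower for E10-P56, and 11 of 17 higher and none lower for the adult pulse. Col1a1, the main collagen of bone and tendon, had 2 to 457 UMIs (median 133) in E10-P56 members and 9 to 1441 UMIs (median 195) in adult pulse members. Summed over adult pulse members it reached 24404 CPM in members against 5827 CPM in other cells, and tenocyte-like cells had 17461 CPM. In the mineralisation list 5 of 10 genes tested were higher and 1 lower for E10-P56, and 5 of 9 were higher and 1 lower for the adult pulse. Smpd3, a sphingomyelinase needed for mineralisation, was the lower gene in both libraries. Phospho1, a phosphatase of matrix vesicles, had no UMI in any member. Among matrix proteases 2 of 17 were higher and 8 lower for E10-P56, 5 of 16 were higher and 4 lower for the adult pulse, and Ctsk was higher in both, by log2 ratios of 1.15 and 1.21. In the marrow stroma list 1 of 7 was higher in each library, Foxc1, and 4 and 2 were lower, with Cxcl12 lower in both. At the limit of 3 counts the lower genes in E10-P56 were 7 proteases and 2 marrow stroma genes.

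Markers of other cell types are given beside the same shares of all genes tested, 6.27% higher and 12.9% lower for E10-P56, 5.02% and 9.21% for the adult pulse. In the E10-P56 members the haematopoietic list had 0 CPM, the endothelial list 4.42 CPM and the myogenic list 0 CPM, and in the adult pulse members the corresponding values were 8.46, 5.64 and 16.9 CPM. No gene of these lists was 2-fold or more higher in members. In E10-P56 1 haematopoietic and 1 endothelial gene were lower, and in the adult pulse 2 endothelial and 2 myogenic genes. At the limit of 3 counts only 1 of these, a myogenic gene of the adult pulse, was lower. Of the perineurial list 4 of 5 genes were lower in E10-P56 and none was called in the adult pulse, and of the adipocyte list 1 gene was lower in each library. At the limit of 3 counts 2 of the 4 perineurial genes, Wnt6 and Cldn1, and the adipocyte gene of E10-P56 were not 2-fold lower. Fabp4, the most abundant gene of that list, had 137 UMIs in 6 E10-P56 members, 88 of them in 1 cell, and 1 UMI in the adult pulse members. Ptprc, the defining gene of blood cells, and Pecam1, that of endothelium, had no UMI in any member. Of the osteoclast list, Dcstamp, Atp6v0d2 and Calcr had none either and Ocstamp had 1, in the adult pulse. Acp5, the phosphatase that marks osteoclasts and the only gene of that list with enough UMIs to be tested, had 3 UMIs in 3 E10-P56 members and 8 UMIs in 6 adult pulse members, with log2 ratios of -1.26 and 1.29. The cycling list had no UMI in members of either library. S100b, shared by Schwann cells and chondrocytes, was the only gene of the Schwann list that was 2-fold or more higher, with 19 and 56 UMIs. The other 4 of the 5 Schwann genes were lower in E10-P56, 3 of them at the limit of 3 counts. In the adult pulse 1 of 4 tested was lower, also at that limit. Of the pericyte list none was higher, although a single member of each library held most Rgs5 UMIs, 96 of 98 for E10-P56 and 104 of 106 for the adult pulse. Lower were 2 of 5 pericyte genes in E10-P56 and 1 of 5 in the adult pulse, also at the limit of 3 counts. In the smooth muscle list none of 6 genes was higher and 1 was lower in E10-P56. In the adult pulse 2 of 6, Acta2 and Tagln, were higher and 2 were lower. At the limit of 3 counts no smooth muscle gene was lower in E10-P56 and still 2 in the adult pulse. For early response genes, which dissociation can induce, 2 of 8 were higher in E10-P56 and none in the adult pulse, with median log2 ratios of 0.4 and 0.0049. Their part in the other ratios was not tested.

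At least 1 UMI of the label was found in every member, and also in 95.9% of the other E10-P56 cells and 99.1% of the other adult pulse cells. No cell type without the label was sorted, so the share that free RNA gives could not be measured. tdTomato had 1 to 43 UMIs (median 11) in the 28 E10-P56 members and 1 to 91 UMIs (median 19) in the 31 adult pulse members, with log2 ratios to other cells of 0.3 and -0.09. Hic1 had 1 UMI in 1 E10-P56 member and 6 UMIs in 5 adult pulse members, at 4.42 against 46.7 CPM and 16.9 against 43.7 CPM. CreERT2 had no UMI in any member.

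The working name of osteochondral-type cells was read against genes that the rule did not use, and it was met in part. Among E10-P56 members, Ibsp was present in 1 of 28, Sp7 in 2, Col2a1 in 1 and Omd in 15, beside Scx in 21 and Tnn in 17. Runx2 was present in 13 of these members, Pth1r in 10, Alpl in 3, Hapln1 in 13 and Sox9 in 13. Among adult pulse members, Ibsp was present in 2 of 31, Sp7 in 8, Col2a1 in none and Omd in 23, beside Scx in 15 and Tnn in 13. Runx2 was present in 18 of these members, Pth1r in 16, Alpl in 9, Hapln1 in 5 and Sox9 in 9. Omd was common outside members too, Runx2 and Alpl were found in other clusters, and Tnn in E10-P56 cycling cells, as given above. Both sets are therefore called here by the rule that chose them.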

How the data were processed

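Droplet 3′ single-cell RNA-seq had been made from 2 libraries of sorted tdTomato+ muscle cells. The authors deposited counts of UMIs for each gene in each barcode as sparse matrices, per the file headers from Cell Ranger 5.0.0 (E10-P56) and 3.0.2 (adult pulse), and the labels name the mm10 build, which the study's methods call a modified reference. Whether intronic reads were counted is not given in the sources used here. The matrices held 67460919 UMIs in 8236 barcodes and 69153173 UMIs in 9195 barcodes, over 28001 features. Members and gene lists were chosen with earlier results of these data known.

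Barcodes under 1500 UMIs or over 10% mitochondrial UMIs were left out. Counts were summed over members and over other cells of the same library and compared as CPM with 5 CPM added, for genes with at least 50 UMIs. The values named are, for each library, the 10 genes with the largest and the 10 with the smallest ratio among genes with a UMI in at least 10% of members (for the smallest, of other cells), without the rule genes, and from each list the genes with the largest and smallest ratio and the most abundant, together with the rule and labelling genes. Genes named beyond these were chosen after their values were seen. Clusters were built per library in scanpy 1.11.5 (2000 variable genes without the rule genes, 30 principal components, 20 neighbours, Leiden resolution 0.5) and named only from 3 or more listed markers, with no name where more of a cluster's 10 leading genes were on another list. Doublet scores came from Scrublet. Shares have exact Clopper-Pearson intervals, CPM and their ratios exact Poisson and conditional binomial ones. The ratio step was tested on simulated data. Of the libraries' features, 27645 had an identifier in GENCODE M21. Of the chondrocyte list, 21 of 23 symbols were found in the files. Alternatives changed the cell limits, the number of rule genes or UMIs required, the minimum per gene, depth, the doublet cells, the cluster resolution and the comparison cells. Some genes of the lists are counted but not reported here by name or drawn.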

Additional observations from a re-analysis of the deposited data

Results flagged for a closer look

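Several list genes had a ratio of members to other cells, with 5 CPM added, of 2-fold or more higher in one library and 2-fold or more lower in the other. With 1 library for each labelling time, none of these differences was tested. Col11a2, a fibril collagen of cartilage, had a log2 ratio of 3.31 for E10-P56 and -1.31 for the adult pulse, and 1 E10-P56 member held 17 of its 19 UMIs. Tnfrsf11b, the decoy receptor gene of the RANK ligand system, had 1.18 and -1.29. Both genes had 0 UMIs in adult pulse members, where the limit of 3 counts, 8.46 CPM, lay above the 7.43 and 7.26 CPM of the other cells, so that no lower level is shown for them and the negative values are set by the 5 CPM added. Tnmd, a tendon marker, had 1.43 and -1.25. The opposite order was seen for Acp5, an osteoclast gene, with -1.26 for E10-P56 (3 UMIs, a CPM ratio of 0.341 with an interval of 0.0703 to 0.998) and 1.29 for the adult pulse, for Lox, a collagen crosslinking enzyme, with -1.51 and 1.55, for Sfrp4, a secreted Wnt modulator, with -2.21 and 2.33, and for Timp1, a protease inhibitor, with -1.06 and 2.63. One adult pulse member held 182 of the 251 Timp1 UMIs, and without it the log2 ratio was 0.91.

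Barcodes outside the limits on UMIs and mitochondrial share also held the rule genes. In each library 5 left-out barcodes had 2 or more of them, and all 10 were over the mitochondrial limit, between 11.5 and 13.9% for E10-P56, between 10.1 and 11.6% for the adult pulse. The 5 adult pulse barcodes had a median of 9818 UMIs and held 26 UMIs of Bglap, 44 of Bglap2 and 35 of Ostn, and the 5 in E10-P56 held 10 UMIs of Acan and 8 of Ostn.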

How the results depend on the processing

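Across 126 recomputed values under 19 settings, 101 stayed within the main interval or within 1.5 times the main count. These values are shares and counts, which have no direction that could turn. For E10-P56, the share of cells meeting the rule was 0.197% with 3 rule genes required, 0.263% with 2 UMIs of a gene required and 0.148% after thinning each cell to 1500 UMIs. Members with 3 or more osteoblast-list genes fell to 0% (0 of 9) after thinning. The osteoblast-list count went from 7 to 4 with a 5% mitochondrial limit, to 2 after thinning, to 3 without the member with most UMIs of each gene, and to 4 against tenocyte-like cells. The chondrocyte-list count went from 13 to 6 with 3 rule genes required, to 4 after thinning and to 7 without the top member. The share of members in fibroblast-like clusters was 0% with a 5% mitochondrial limit, 3 rule genes, 2 UMIs, the top doublet scores left out and resolution 0.3. For the adult pulse, the share meeting the rule was 0.21% after thinning. Members with 3 or more osteoblast-list genes were 87% with 3 rule genes or with 2 UMIs required and 33.3% after thinning. The osteoblast-list count was 12 with no minimum on UMIs, a setting that lets in the osteocalcin copy Bglap3. The chondrocyte-list count was 1 against tenocyte-like cells. The share in fibroblast-like clusters was 0% after thinning and at resolutions 1 and 0.3, at which 1301 and 2568 cells carried that name in place of 6985. The comparisons with tenocyte-like cells, with the minimum in other cells alone, of genes at 0 UMIs with the limit of 3 counts, without the top member and without the 15 shared barcodes were chosen after seeing the data. No paired analysis was possible because each group has 1 library and no result comes from a test. With 28 and 31 members, shares near 0 cannot be resolved at this depth.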

Other observations

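Some list genes with few UMIs lay outside the comparisons because they were under 50 UMIs, and they are named here after their values were seen. Grem1, the BMP antagonist gremlin, had 22 UMIs in 4 of 31 adult pulse members and none in the 8536 other cells. No ratio is given for it, since it was picked on these counts and most members had no UMI of it. The E10-P56 library had 5 Grem1 UMIs in 3 members and 6 in the other cells. Dlx6, the neighbour and relative of Dlx5, had 11 UMIs in 8 E10-P56 members and 9 UMIs in the other cells, and 21 UMIs in 11 adult pulse members against 19. Ucma, a gene of cartilage matrix, had all of its 17 E10-P56 member UMIs in 1 cell. Slc20a2, a phosphate transporter gene that had enough UMIs to be tested, had 43 UMIs in 10 adult pulse members, a CPM ratio of 21.5 (interval 15.3 to 29.5), and 3 UMIs in 3 E10-P56 members, a ratio of 1.53 (0.315 to 4.5). The difference between the libraries was not tested.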
